A study of Mus musculus with 76 samples.

Results

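Interferon response genes are the transcripts that a cell raises once interferon binds its receptors, and 45 of them were followed here among the 37980 genes of a deposited expression table. They were chosen by symbol, as well-known members of the mouse response, with earlier results of these data known. All 45 were found in the table and all 45 passed the filter on low values, which asked for at least 1 FPKM in at least 2 libraries. FPKM is the number of sequenced fragments per kilobase of transcript, scaled to the size of the library. By role the genes comprise 11 sensors and enzymes that act on foreign or double-stranded RNA, 19 antiviral effectors, 3 genes of the ISG15 system, 4 transcription factors, 7 interferon-inducible GTPases and Tap1, which loads peptides for antigen presentation. Roles are those known for the family, and Mx2 is annotated as a polymorphic pseudogene.

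Interferons are secreted proteins that warn cells of infection. Type I interferon signals through the receptor chains Ifnar1 and Ifnar2 and the kinases Jak1 and Tyk2 to transcription factors that include Stat2 and Irf9 and bind short DNA elements in front of the response genes, whereas interferon gamma signals through a receptor of its own. In the thymus some interferon is made without infection, largely in the medulla, where single positive thymocytes complete their maturation, and stem cells are known to hold part of the response at a basal level.

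The study asked whether the homeobox factor Hoxb5 turns B cell precursors into T cells. Pro/pre-B cells from marrow of C57BL/6 mice received a Hoxb5 virus in culture, were sorted and were transplanted into recipients given sublethal irradiation, and the cells sequenced were sorted later from marrow or thymus, 1000 of each type. The table holds 76 libraries of 24 cell types, of which 75 are distinct, because pro/pre-B library 3 is a copy of library 1 and was left out. The 15 natural types are hematopoietic stem cells (HSC), multipotent progenitors (MPP), early T lineage progenitors of marrow (BM ETP) and of thymus, double negative stages DN1 to DN4, double positive (DP) cells, CD4 and CD8 single positive (SP) cells, mature T cells, pro/pre-B cells, mature B cells and myeloid cells. The 9 induced types, which derive from Hoxb5-transduced pro/pre-B cells, are BM ETP, thymic ETP, DN1 to DN4, DP, CD4 SP and CD8 SP. The labels give the strain but no age, no genotype beyond it and no treatment specific to the mice that gave the natural cells, and they do not say whether a vector control was made. Each type has 2 to 4 libraries, and since the labels do not tie libraries to animals, p-values measure the spread between libraries, which may be technical.

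The libraries summed to 667660 to 2004010 FPKM and held 9828 to 12202 genes at 1 FPKM or more. From the steps between low values of 4285 genes with 1 transcript, 1 FPKM in a kilobase of transcript was estimated to stand for 0.98 to 11.25 fragments (median 4.29), with the myeloid libraries shallowest, so values under a few FPKM rest on few fragments. The highest estimate was that of natural CD8 SP library 1, against 3.90 and 3.63 in libraries 2 and 3. Whether it is a multiple of the true step was not tested. Of lineage markers, induced BM ETP held all 10 B lineage markers at 1 FPKM or more, summing to 13892 to 14209 FPKM against 23955 to 25909 FPKM in pro/pre-B cells, and Cd3d, Cd3e, Cd3g, Bcl11b, Cd4 and Cd8a were listed at 0. Natural DN1 cells held all 10 natural killer markers, and their libraries 1 and 2 summed to 2309 and 3790 FPKM of B lineage markers against 428 in library 3. Pro/pre-B library 4 summed to 4639 FPKM of myeloid markers against 59.7 and 40.7 in libraries 1 and 2. In bulk samples such as these, fewer cells of a type and less RNA per cell cannot be told apart.

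The sequences below show the interferon-stimulated response element near the transcription start of members that the results turn on, since this is the element that complexes with Irf9 bind. Windows from 250 bases before to 50 bases after each transcription start, taken from RefSeq on build GRCm38.p6, were searched on both strands for a pair of GAAA sites with any 2 bases between them (GAAA, NN, GAAA, which reads TTTC, NN, TTTC on the other strand), and overlapping matches were counted separately. The 250 bases before the start of 2 genes are given in full, Ifit1 at chr19:34640639-34640888 on the plus strand and Isg15 at chr4:156200819-156201068 on the minus strand, with matches in capitals. Each sequence reads 5′ to 3′ along the gene.
Ifit1: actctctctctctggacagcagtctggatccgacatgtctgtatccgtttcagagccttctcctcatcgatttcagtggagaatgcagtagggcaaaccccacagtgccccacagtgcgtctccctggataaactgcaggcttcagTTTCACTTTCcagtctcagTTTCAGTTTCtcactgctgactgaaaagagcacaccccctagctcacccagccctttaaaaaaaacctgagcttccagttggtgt
Isg15: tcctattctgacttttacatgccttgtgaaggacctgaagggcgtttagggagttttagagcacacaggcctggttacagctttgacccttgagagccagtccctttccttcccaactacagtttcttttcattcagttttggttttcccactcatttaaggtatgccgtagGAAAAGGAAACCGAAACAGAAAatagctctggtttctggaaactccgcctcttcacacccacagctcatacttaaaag

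Shorter sites, 10 bases on each side of a match in capitals, compare the element between genes that behaved differently below. All of these matches lie before the transcription start except that of Ifitm3, which lies after it. They are Ifit3 at chr19:34583397-34583426 (plus strand), Oas1a at chr5:120907520-120907549 (minus), Gbp7 at chr3:142530273-142530302 (plus), Igtp at chr11:58199512-58199541 (plus), Irgm2 at chr11:58214903-58214932 (plus), Stat2 at chr10:128270266-128270295 (plus), Ifitm2 at chr7:140955988-140956017 (minus) and Ifitm3 at chr7:141010706-141010735 (minus).
Ifit3: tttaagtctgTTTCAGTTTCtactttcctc
Oas1a: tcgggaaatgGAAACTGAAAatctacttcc
Gbp7: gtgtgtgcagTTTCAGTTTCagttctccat
Igtp: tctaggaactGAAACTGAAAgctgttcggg
Irgm2: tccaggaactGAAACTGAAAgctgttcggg
Stat2: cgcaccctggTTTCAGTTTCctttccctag
Ifitm2: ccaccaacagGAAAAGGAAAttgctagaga
Ifitm3: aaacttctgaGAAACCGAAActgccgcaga

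A window was found for 36 members, and 19 of them (52.8%) held the element, against 1079 of 27025 genes with a window (3.99%) and 20 of 44 other interferon response genes (45.5%). Igtp and Irgm2 overlap in the annotation, so reads of the 2 genes may have been shared. Samhd1, Irf7, Irf9, Ifi47, Sp100 and Ifitm1 are among the 17 with no match in the window, which says only that these letters are not there.

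As a group the 45 genes were highest in myeloid cells and lowest in natural DP cells. The mean of log2(FPKM + 1) over the genes was 5.31 ± 0.15 in myeloid cells (SD, n = 2), 4.98 ± 0.07 in MPP (n = 4), 4.79 ± 0.09 in HSC (n = 4), 4.66 ± 0.21 in induced thymic ETP (n = 3) and 4.57 ± 0.14 in natural DN1 cells (n = 3). At the other end it was 2.67 ± 0.06 in natural DN4 (n = 3), 2.49 ± 0.06 in induced DP (n = 3) and 2.29 ± 0.09 in natural DP cells (n = 4). The mean over all 17416 genes tested ran from 2.49 to 2.81 between the same 24 types, a range that averaging so many normalized values keeps narrow. Of 23 neighbouring pairs in this order, 17 had libraries that overlapped, and the 6 that did not were myeloid above MPP, MPP above HSC, mature T above mature B, induced BM ETP above induced DN4, natural DN4 above induced DP, and induced above natural DP.

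**Figure D1:**
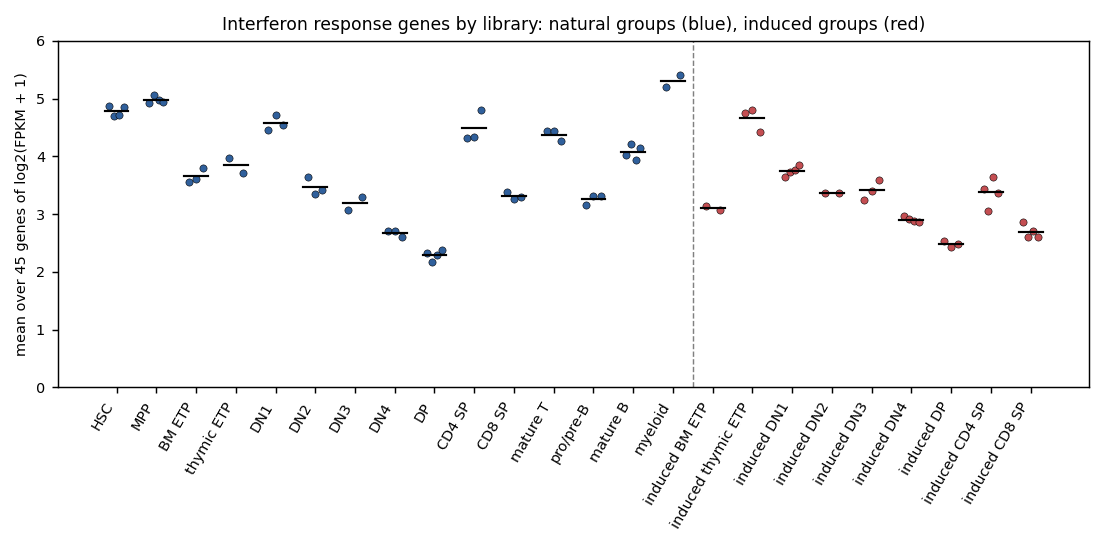
Mean of log2(FPKM + 1) over the 45 interferon response genes in each library (points) and each of 24 cell types (horizontal bars show the mean of the libraries). Natural types come first and induced types after them, in different colours. Myeloid cells, MPP and HSC have the highest means, with libraries between 4.70 and 5.42, a range that also holds single libraries of induced thymic ETP, natural CD4 SP and natural DN1 cells, and natural DP libraries at the bottom, between 2.17 and 2.39.

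Along the natural thymic path the mean ran from 3.85 ± 0.18 in thymic ETP (n = 2) and 4.57 ± 0.14 in DN1 through 3.47 ± 0.16 (n = 3), 3.18 ± 0.15 (n = 2) and 2.67 ± 0.06 to 2.29 ± 0.09 in DP cells, and then stood at 4.48 ± 0.28 in CD4 SP (n = 3) and 3.31 ± 0.06 in CD8 SP (n = 3). Along the induced path it ran from 4.66 ± 0.21 in thymic ETP through 3.75 ± 0.08 in DN1 (n = 4), 3.36 ± 0.00 in DN2 (n = 2), 3.41 ± 0.17 in DN3 (n = 3) and 2.90 ± 0.05 in DN4 (n = 4) to 2.49 ± 0.06 in DP, 3.38 ± 0.24 in CD4 SP (n = 4) and 2.69 ± 0.12 in CD8 SP (n = 4). Both paths reached their lowest mean at DP. In natural DP cells 17 of the 45 genes had a mean below 1 FPKM, and 6 were listed at 0 in all 4 libraries.

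The genes did not form 1 pattern. Over the 24 types, each gene's mean log2 level had a median Pearson correlation of 0.68 with the mean of the other 44, a description over types that share a table and its normalization. It was highest for Oas2 (0.90), which makes the second messenger that activates RNase L, Xaf1 (0.89), a factor tied to cell death, and Oas1a (0.89), and lowest for the GTPase Igtp (0.08), the translation inhibitor Ifit2 (0.17), the GTPase Ifi47 (0.29) and the factor Irf1 (0.31). By cell type, 18 genes were highest in myeloid cells, 8 in natural CD4 SP cells and 5 in HSC, and 18 were lowest in natural or induced DP cells. The smallest spread between types was that of Trim25, a ligase for ISG15 and for the RNA sensor Ddx58, with 1.38 log2 units between its highest and lowest type, and the largest was that of Ifitm1 with 11.77. Outside the list, the genes with the pattern most like the mean of the members were Capg (0.89), Appl2 (0.89), Atp10d (0.89), Mvp (0.88) and Kctd10 (0.86), over the same 24 types.

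**Figure D2:**
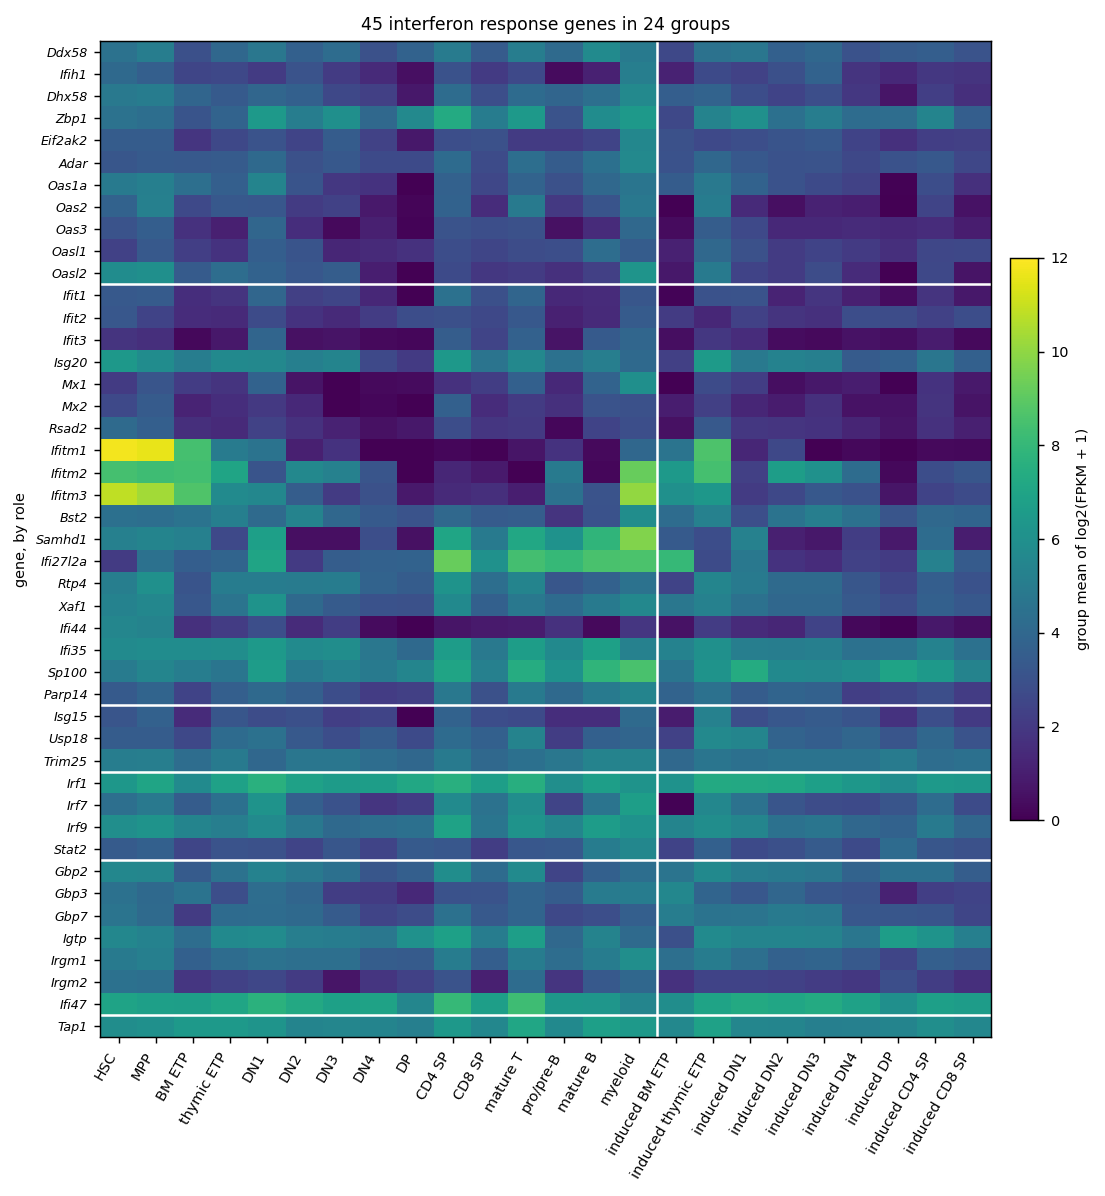
Mean log2(FPKM + 1) of each of the 45 genes (vertical axis, by role) in each of 24 cell types (horizontal axis), with the colour scale giving the level. The DP columns are darkest, which marks low levels, for sensors and antiviral effectors, and Ifitm1, Ifitm2 and Ifitm3 stand out in HSC and MPP.

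The Ifitm genes encode small membrane proteins that block viral entry, and Ifitm1 and Ifitm3 had the widest spread between types of all members. Ifitm1 was read at 3569, 3533, 3650.0 and 3209.9 FPKM in the HSC libraries and at 2701, 2569.6, 3828 and 3316 FPKM in the MPP libraries. It stood at 371, 311 and 373 FPKM in natural BM ETP, 18.9 and 50.3 FPKM in natural thymic ETP, and was listed at 0 in natural DN4 and DP cells. Ifitm3 followed it in stem cells, at 2042, 1682, 1853 and 1719 FPKM in HSC, but was also high in myeloid cells at 1121 and 998 FPKM, where Ifitm1 was at 14.2 and 15.7 FPKM. Thus all HSC and MPP libraries lay above all others for Ifitm1, while for Ifitm3 the myeloid libraries stood near MPP. The 3 genes are close copies of each other, and how the authors assigned reads that fit more than 1 of them is not given in the sources used here.

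**Figure D3:**
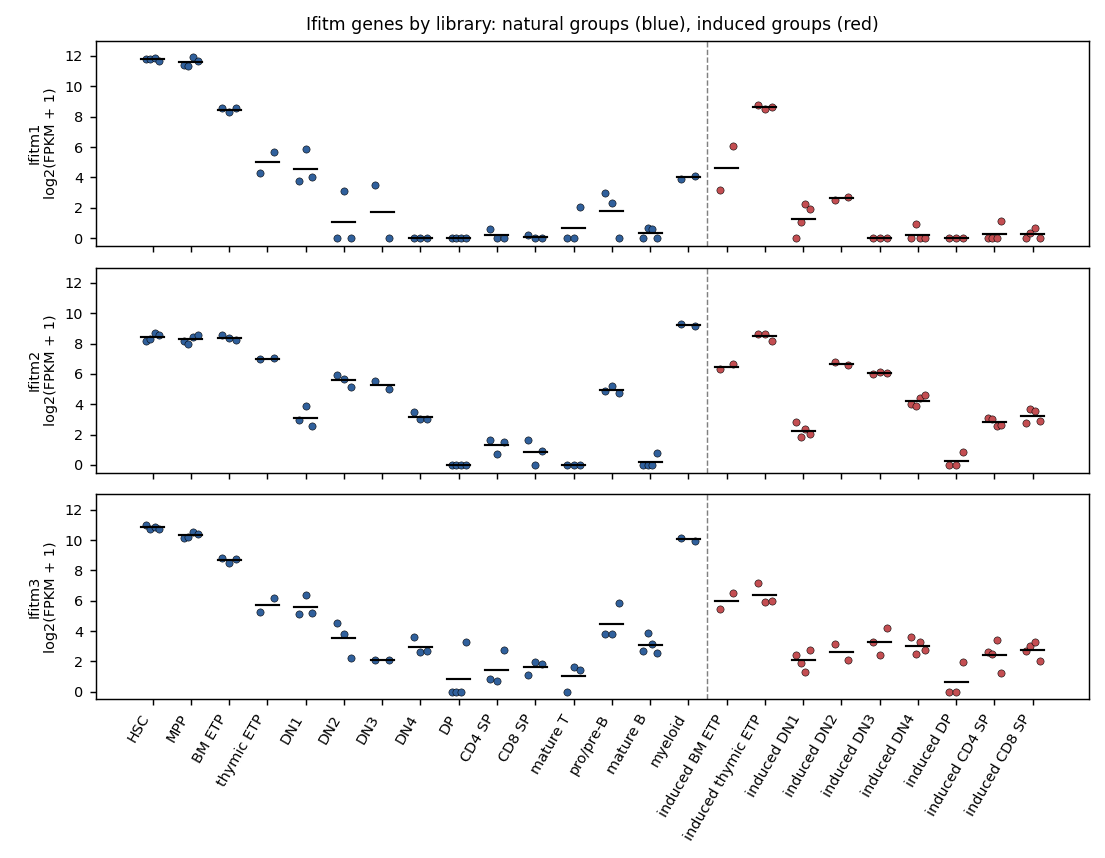
FPKM of Ifitm1, Ifitm2 and Ifitm3 in every library of 24 cell types on a log2(FPKM + 1) axis, 1 panel per gene, natural and induced types in different colours. Ifitm1 reaches 3650.0 FPKM in HSC and is listed at 0 in natural DP, and Ifitm2 is at 78.7 FPKM or more in natural and induced ETP of marrow and thymus.

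HSC and MPP differed at 3 of the 45 genes, a share near that of all genes. With limma on log2(FPKM + 1), 1 fit over 75 libraries and p-values adjusted by Benjamini-Hochberg over 17416 genes, 8.13% of all genes passed an adjusted p of 0.05 between HSC and MPP, with 5.01% higher and 3.12% lower in HSC, and of the members 0 were higher and 3 were lower in HSC. Ifi27l2a, a small hydrophobic protein of the Ifi27 family, was read at 2.57, 3.92, 0.722 and 10.2 FPKM in HSC and 31.1, 16.9, 19.96 and 20.2 FPKM in MPP, with no overlap (log2 difference -2.39 ± 0.56, adjusted p = 0.00191). Oas2 was read at 8.74, 11.9, 12.5 and 18.8 FPKM in HSC and 23.8, 37.4, 50.6 and 37.5 FPKM in MPP (log2 difference -1.45 ± 0.40, adjusted p = 0.00986), and its call was lost without HSC library 1 (adjusted p = 0.0523) or MPP library 3 (adjusted p = 0.0534) and with a pseudocount of 0.1 (adjusted p = 0.209). The call of Irf1 (log2 difference -0.66 ± 0.20, adjusted p = 0.0306) was lost without HSC library 2, 3 or 4 or MPP library 1 or 2 (adjusted p from 0.0743 to 0.206). A fit of the 2 groups alone called 1 member, Oas2.

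In natural cells most of the response was higher in CD4 SP than in DP cells. Of the 45 genes 35 rose and 0 fell, where 13.2% of all genes tested rose and 13.5% fell (26.7% in either direction), and 33 of the 35 had libraries that did not overlap, as did 63.9% of all genes that passed. The median log2 fold change of the members was 2.05, against 0.00 over all genes tested. Samhd1, which destroys the nucleotides that viruses need, was read at 0.827, 0.304, 0.733 and 0.0796 FPKM in the 4 DP libraries and at 137, 147 and 114 FPKM in the 3 CD4 SP libraries (log2 fold change 6.52 ± 0.33, adjusted p = 1.43e-23). Ifi27l2a was read at 23.2, 5.94, 26.4 and 6.50 FPKM in DP and 582, 697 and 517 FPKM in CD4 SP (log2 fold change 5.45 ± 0.61, adjusted p = 1.04e-10). Every CD4 SP library lay above every DP library for both.

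Several classical members were listed at 0 in DP cells and rose at this step. Ifit1, which binds viral RNA, was listed at 0 in all 4 DP libraries and read at 22.6, 13.8 and 29.8 FPKM in CD4 SP (adjusted p = 3.11e-10). Isg15, the ubiquitin-like protein that is joined to other proteins, was listed at 0 in DP and read at 4.16, 15.1 and 29.6 FPKM (adjusted p = 2.72e-08). Oas1a was listed at 0 in DP and read at 10.6, 5.96 and 28.6 FPKM (adjusted p = 7.84e-13). Oasl2 and Ifitm2 were listed at 0 in DP as well, and both rose (adjusted p = 1.52e-05 and 0.000246), Ifitm2 only to 2.13, 0.643 and 1.87 FPKM. No fold change is given against a group listed at 0.

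Each role took part in the step. Of the 11 RNA sensors 10 rose (median log2 fold change 2.55), among them Dhx58, a helicase that tunes RNA sensing, from 0.356, 1.82, 0.105 and 1.1 FPKM to 18.9, 11.5 and 26.4 FPKM (3.46 ± 0.40). Of the 19 effectors 13 rose (median 2.49), and of the 7 GTPases 6 rose (median 1.66), with Ifi47 going from 53.4, 21.6, 68.4 and 47.2 FPKM to 242, 274 and 266 FPKM (2.54 ± 0.21, adjusted p = 1.81e-15). All 3 genes of the ISG15 system rose (median 1.53). Of the 4 factors, Irf7, which drives interferon genes, rose from 8.90, 0.417, 7.68 and 2.67 FPKM to 41.4, 47.6 and 71.6 FPKM (3.53 ± 0.45, adjusted p = 3.34e-09), and Irf9 rose from 23.8, 19.6, 26.5 and 14.1 FPKM to 96.6, 136 and 127 FPKM (2.48 ± 0.25, adjusted p = 4.49e-12). Irf1 and Stat2 did not pass. Irf1 was already at 138, 145, 187 and 127 FPKM in DP cells, and Ifit2 stood at 10.5, 4.41, 8.96 and 3.01 FPKM in DP and 6.22, 6.41 and 7.48 FPKM in CD4 SP. Tap1 rose from 35.4, 33.7, 33.3 and 39.4 FPKM to 68.7, 93.9 and 87.5 FPKM (1.2 ± 0.21). Among the 35, calls that 1 left-out library ended were those of Usp18 (DP 2, adjusted p = 0.0573), Ddx58 (CD4 SP 3, 0.0803, or DP 3, 0.308) and Igtp (CD4 SP 1 or 2 or DP 3 or 4, from 0.0537 to 0.119). Library weights ended these 3 calls and that of Zbp1, and equal totals those of Ddx58 and Igtp (from 0.0507 to 0.153). When only DP and CD4 SP libraries were fitted, 22 members passed, all of them upward.

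From induced DP to induced CD4 SP cells fewer members changed. Of the 45 genes 13 rose and 2 fell, where 5.90% of all genes rose and 3.96% fell (9.86% in either direction), and the median log2 fold change of the members was 0.82. Samhd1 was read at 1.71, 0.331 and 0.495 FPKM in induced DP and 27.7, 18.8, 9.35 and 19.96 FPKM in induced CD4 SP, with no overlap (3.42 ± 0.33, adjusted p = 2.64e-11). Oas1a was read at 0, 0.114 and 0 FPKM and 8.00, 5.34, 8.37 and 3.97 FPKM (2.79 ± 0.36, adjusted p = 5.73e-08), and Ifi27l2a at 8.54, 0.627 and 4.13 FPKM and 39.4, 35.3, 19.7 and 75.6 FPKM (3.18 ± 0.61, adjusted p = 0.000173). All 4 induced CD4 SP libraries lay above all 3 induced DP libraries for these 3 genes. Oasl2 was listed at 0 in induced DP and rose (adjusted p = 0.000176). When only the 2 groups were fitted, 3 members passed, Oas1a, Ifitm2 and Samhd1.

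Of the genes that rose at the induced step, 11 also rose at the natural one, which is 84.6% of the induced list and 31.4% of the natural list, and Ifitm3 and Mx1 passed at the induced step but not at the natural one, while the difference of their steps did not pass. Of the 11, Rtp4 lost its call without any 1 of induced CD4 SP libraries 3 and 4 and induced DP libraries 1, 2 and 3, Dhx58 without induced CD4 SP library 1 or induced DP library 2, and Irf9 without induced DP library 3 (adjusted p from 0.0505 to 0.124). Library weights ended the calls of Rtp4, Mx1 and Ifitm3 (adjusted p from 0.0549 to 0.0609). Mx1 was listed at 0 in induced DP. Its call (adjusted p = 0.0363) was lost without any 1 of induced DP libraries 1, 2 and 3 or induced CD4 SP libraries 1, 3 and 4 (from 0.0596 to 0.143). That of Ifitm3 (adjusted p = 0.0468) was lost without induced CD4 SP library 1, 2 or 3 or induced DP library 1 or 2 (from 0.0846 to 0.237). Trim25 and Stat2 were the 2 that fell, Trim25 from 27.3, 37.0 and 28.4 FPKM to 24.7, 11, 19.4 and 21.7 FPKM (-0.70 ± 0.20, adjusted p up to 0.141 without induced CD4 SP library 2 or induced DP library 2), and Stat2 from 18.3, 21.6 and 12.8 FPKM to 6.44, 6.91, 10.5 and 9.30 FPKM (-0.99 ± 0.30, adjusted p from 0.0686 to 0.152 without induced CD4 SP library 1 or 2 or induced DP library 1 or 2).

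**Figure D4:**
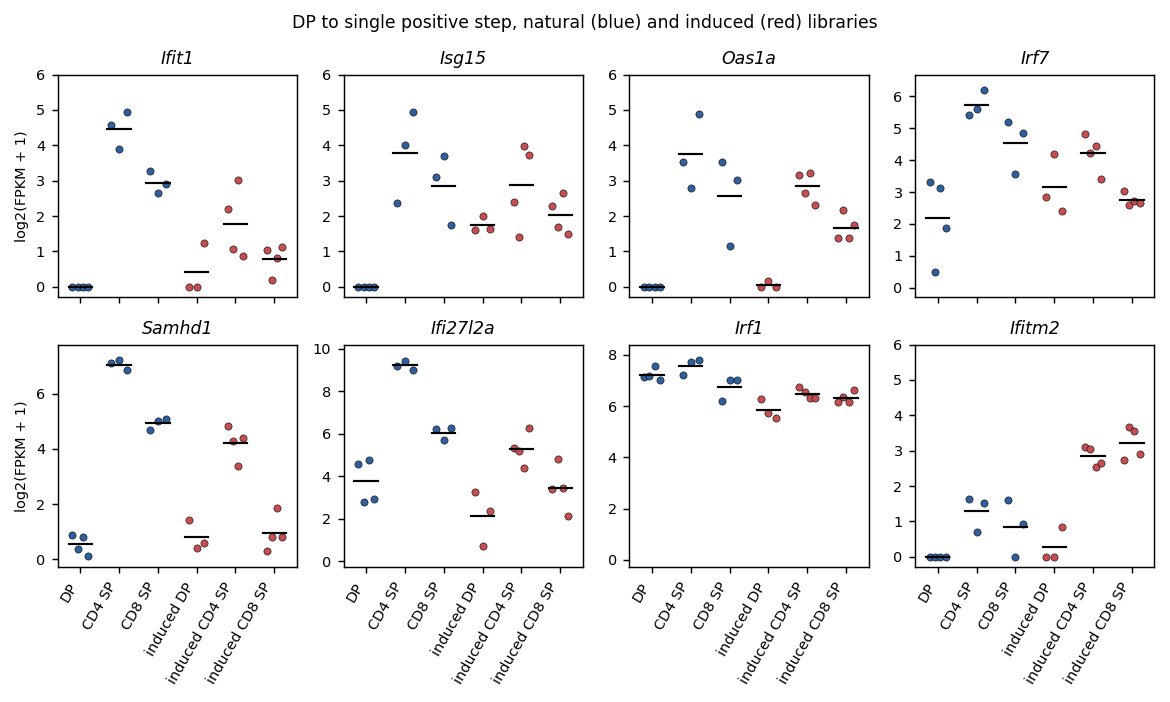
FPKM in every library of natural and induced DP, CD4 SP and CD8 SP cells for selected members, 1 panel per gene, on a log2(FPKM + 1) axis, with bars at the group mean. Samhd1 rises from below 1 FPKM in natural DP to 114 FPKM or more in natural CD4 SP and only to 9.35 to 27.7 FPKM in induced CD4 SP.

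The difference between the induced and the natural step was tested itself. Of the 45 genes 22 had a smaller step and 1, Ifitm2, a larger step in induced cells, where 17.3% of all genes passed (9.65% larger, 7.69% smaller), and the median difference of the members was -1.34 log2 units. Sp100, a protein of nuclear bodies, rose at the natural step, from 30.8, 46.8, 37.6 and 59.1 FPKM to 121, 135 and 128 FPKM (1.57 ± 0.25). In induced cells it stood at 117, 145 and 115 FPKM in DP and 65.6, 72.1, 99.0 and 116 FPKM in CD4 SP, and the step differed by -2.11 ± 0.35, adjusted p = 5.63e-06. The step of Samhd1 differed by -3.10 ± 0.47, adjusted p = 1.13e-06, and that of Ifi47 by -1.76 ± 0.29, adjusted p = 5.52e-06. Gbp7, a guanylate-binding GTPase, rose in natural cells from 10.5, 5.53, 4.63 and 4.56 FPKM to 23.1, 24.0 and 16.9 FPKM and stood at 7.32, 8.49 and 9.50 FPKM and 11.2, 5.19, 7.34 and 7.94 FPKM in induced cells (step difference -1.78 ± 0.38, adjusted p = 0.000445). The call of Ifitm2 was lost without induced DP library 1 or 2 or natural CD4 SP library 2 (adjusted p from 0.0626 to 0.11), with a pseudocount of 0.1 (0.472), with quantile normalization (0.0556) and with library weights (0.182). Weights also ended the calls of Isg15, Mx2, Ifih1, Dhx58, Rtp4 and Adar (adjusted p from 0.0526 to 0.158), and equal totals that of Adar (0.0521). With only the 4 groups in the fit, 8 members passed.

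**Figure D5:**
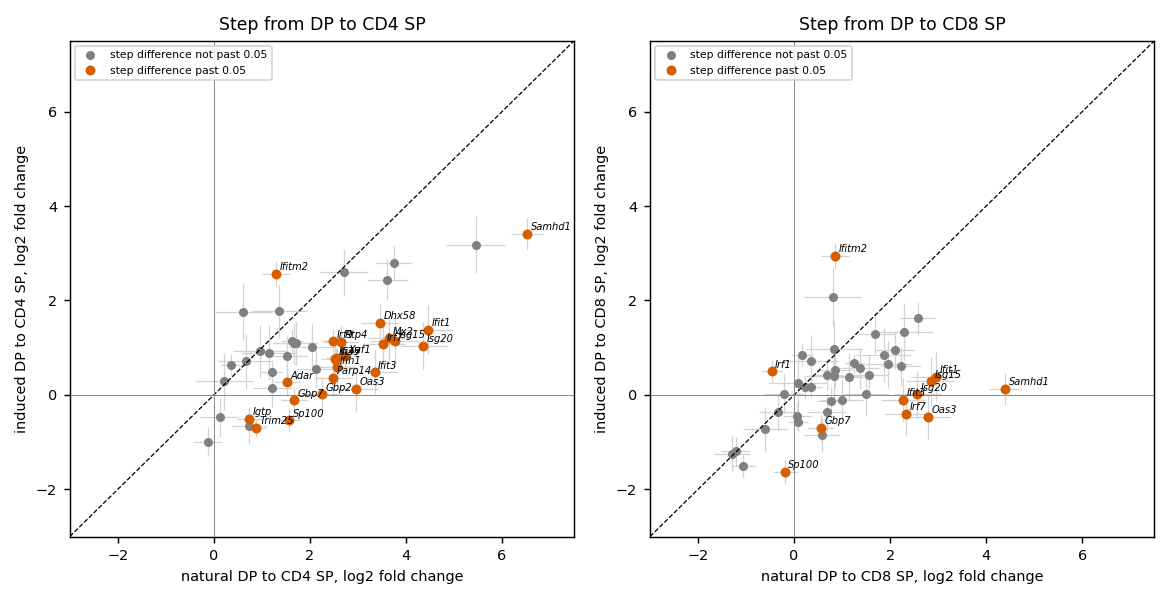
Log2 fold change from DP to CD4 SP (left) and from DP to CD8 SP (right) of each of the 45 genes, natural cells on the horizontal axis and induced cells on the vertical axis, with the line of equal change and the genes whose steps differed marked. For CD4 SP 39 of the 45 points lie below the line, 22 of them past the test.

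The CD4 SP cells were then compared directly. Of the 45 genes 25 were lower and 1 was higher in induced than in natural CD4 SP cells, where 12.4% of all genes were lower and 14.0% higher (26.4% in either direction), and the median log2 difference of the members was -1.1. The comparison shares its libraries with the steps above. Ifi27l2a differed most, -3.93 ± 0.61, adjusted p = 6.63e-07, followed by Samhd1, -2.83 ± 0.33, adjusted p = 7.92e-10, with the library values given above and no overlap for either. Rtp4, a chaperone that rises with interferon, was read at 8.33, 6.37, 15.2 and 18.7 FPKM in induced and 67.9, 63.3 and 79.0 FPKM in natural CD4 SP cells (-2.54 ± 0.35, adjusted p = 3.25e-08). Irf9 stood at 29.2, 27.2, 27.2 and 33.7 FPKM in induced against 96.6, 136 and 127 FPKM in natural cells (-1.98 ± 0.25, adjusted p = 4.91e-09), and Irf1 at 106, 92.0, 79.3 and 78.0 FPKM against 149.6, 209.9 and 219 FPKM (-1.1 ± 0.22, adjusted p = 7.73e-05). Natural libraries were above all induced ones for these 3 genes too.

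By role, 7 of 11 sensors were lower (median -1.09), 10 of 19 effectors (median -1.30), 4 of 7 GTPases (median -1.27) and 3 of 4 factors (median -1.31), and Tap1 did not pass. Xaf1, at 8.32, 11.1, 14.2 and 15.8 FPKM in induced and 47.9, 50.8 and 53.1 FPKM in natural cells (-1.99 ± 0.33), and Ifit3, at 1.48, 0.292, 0.612 and 1.44 FPKM and 8.45, 12.6 and 11.5 FPKM (-2.64 ± 0.46), were among the effectors with no overlap. The 1 gene that was higher was Ifitm2, at 7.64, 7.30, 4.84 and 5.26 FPKM in induced cells against 2.13, 0.643 and 1.87 FPKM (1.54 ± 0.28, adjusted p = 1.72e-05). Single left-out libraries ended the calls of Isg20 and Irf7 (natural 3, adjusted p = 0.0577 and 0.0541), Oas2 (natural 3, 0.172, or induced 4, 0.0799), Oas3 (induced 1 or 2, up to 0.0726), Trim25 (natural 1 or 2 or induced 2, up to 0.191), Adar (natural 2, 0.0685) and Ifih1 (natural 2 or 3 or induced 1, 2 or 4, up to 0.161). A pseudocount of 0.1 ended the calls of Isg20, Oas2 and Ifih1, equal totals those of Oas2, Ifih1, Trim25 and Adar, and library weights those of Oas3, Ifih1 and Trim25 (adjusted p from 0.0526 to 0.359). A fit of the 2 groups alone called 16 members.

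Sums of marker lists differed between these CD4 SP groups too. The 10 markers of single positive maturation, all at 1 FPKM or more in both groups, summed to 5423 to 6428 FPKM in natural and 1158 to 1431 FPKM in induced CD4 SP libraries, against 599 to 831 FPKM in natural DP. This list, which includes H2-K1 and H2-D1, is not particular to single positive cells. It summed to 3893 to 4179 FPKM in HSC and 3509 to 4065 FPKM in pro/pre-B cells. The 12 proliferation markers summed to 916 to 1128 FPKM in natural and 3616 to 4659.8 FPKM in induced CD4 SP cells. Of 10 natural killer markers, 6 were at 1 FPKM or more in natural CD4 SP cells (sum 205 to 344 FPKM, Ncr1 and Klra8 at 0) and 1 in induced ones (sum 2.01 to 15.2 FPKM, with Klrb1c, Ncr1, Klrd1, Klre1, Gzmb, Klra8, Klrk1 and Eomes at 0). Of 12 myeloid markers, 3 were so in natural cells (sum 97.1 to 332 FPKM, with Elane, Mpo and Csf1r at 0) and 0 in induced ones (sum 0 to 1.77 FPKM, with 10 of 12 at 0, Elane, Mpo and Csf1r among them). In mature T cells this myeloid list summed to 1500 to 1725 FPKM with 1 of 12 at 1 FPKM or more, so such sums can rest on 1 gene. Of 11 conventional dendritic markers, 5 were so in natural CD4 SP cells (sum 565 to 742 FPKM, with Itgax, Clec9a and Batf3 at 0) and 3 in induced ones (sum 40.6 to 57.3 FPKM). Ccr7 is on this list and on that of single positive maturation. Of 10 plasmacytoid dendritic markers, 8 were so in natural (sum 176 to 352 FPKM) and 6 in induced CD4 SP cells (sum 240.3 to 279 FPKM). Their part in the member values was not tested.

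The pathway around the members moved as well between natural DP and CD4 SP cells. Nlrc5, an activator of class I antigen presentation, was at 4.01 ± 4.2 FPKM in natural DP (SD, n = 4) and 195 ± 12 FPKM in natural CD4 SP cells (n = 3; 5.62 ± 0.33, adjusted p = 6.96e-21). Of 9 receptors and kinases 5 rose, among them Tyk2 (2.26 ± 0.33), Ifngr2 (1.75 ± 0.29) and Jak1 (1.14 ± 0.14), and 1 fell, Ifngr1, the ligand-binding chain for interferon gamma (-1.55 ± 0.30), while Ifnar1 and Ifnar2 did not pass. Of 12 genes that sense nucleic acid and induce interferon 7 rose, with Tmem173, the adaptor STING, at 11.9 ± 8.58 and 79.3 ± 35.7 FPKM. Of 9 pathway factors 4 rose and 0 fell, and of 10 inhibitors 3 rose and 2 fell. Of 54 further response genes 34 rose and 3 fell, the latter Ly6e, Gbp8 and Lgals9, with B2m, the light chain of class I molecules, at 1188 ± 79.8 and 7957 ± 1237 FPKM (2.73 ± 0.10).

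The same lists were then read between induced and natural CD4 SP cells. Nlrc5 was at 22.2 ± 10.04 FPKM in induced cells (n = 4; -3.21 ± 0.33, adjusted p = 1.61e-11). Of 9 receptors and kinases 5 were lower, Ifnar1, Ifngr2, Jak1, Jak2 and Tyk2, and Ifngr1 was higher (1.15 ± 0.30). Of 54 further response genes 33 were lower and 3 higher, and of 12 induction genes 5 were lower and 0 higher. Of 9 pathway factors 4 were lower and 0 higher, and of 10 inhibitors 2 were lower and 2 higher. Of 21 interferon genes searched, 11 were found and only Ifng passed the filter on low values. Ifng was highest in natural DN1 cells, at 240.0 ± 30.4 FPKM (n = 3), and was listed at 0 in natural DP, induced DP and induced CD4 SP cells. Calls in these pathway lists were not recomputed with libraries left out.

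The step from DP to CD8 SP was followed in the same way. From natural DP to CD8 SP 20 members rose and 3 fell, where 10.7% of all genes rose and 13.2% fell (23.9% in either direction), with a member median of 0.83. Samhd1 was read at 24.9, 31.5 and 32.8 FPKM in CD8 SP (4.39 ± 0.33, adjusted p = 2.1e-16), above all DP libraries and below all natural CD4 SP libraries. Ifit1 at 8.69, 5.24 and 6.57 FPKM, Isg15 at 7.59, 11.9 and 2.33 FPKM and Oas1a at 10.6, 1.22 and 7.11 FPKM all rose from DP cells listed at 0 (adjusted p = 1.04e-05, 1.76e-05 and 7.3e-08). The 3 that fell were Igtp, to 31.8, 36.1 and 27.2 FPKM (-1.06 ± 0.25, adjusted p = 0.000816), Stat2, to 3.42, 3.52 and 3.72 FPKM (-1.21 ± 0.30, adjusted p = 0.00168), and Irgm2 (-1.30 ± 0.37, adjusted p = 0.0066, with 0.112 without CD8 SP library 1). Igtp and Irgm2 are GTPases that act on the vacuoles of intracellular parasites. Of the 20 that rose, 1 left-out library ended the calls of Mx1, Mx2, Oas2, Ifi35 and Ifitm2 (adjusted p from 0.07 to 0.382), other filters, scalings or weights ended those of Mx2, Oas2 and Ifi35 (from 0.0567 to 0.112), and 9 members passed when the 2 groups were fitted alone.

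In induced cells members passed in both directions at the step to CD8 SP, at shares near those of all genes. Among the 45 genes 6 rose and 5 fell, where 9.73% of all genes rose and 9.47% fell (19.2% in either direction), with a member median of 0.25. Ifitm2 rose from 0, 0 and 0.783 FPKM to 5.69, 11.8, 10.8 and 6.45 FPKM (2.94 ± 0.28, adjusted p = 3.36e-12), and Oas1a rose to 1.63, 3.47, 1.58 and 2.37 FPKM (1.62 ± 0.36, adjusted p = 0.000503). Sp100 fell from 117, 145 and 115 FPKM to 42.2, 32.4, 35.3 and 51.0 FPKM (-1.63 ± 0.25, adjusted p = 6.04e-07), Igtp from 108, 112 and 88.8 FPKM to 38.0, 31.2, 36.2 and 35.8 FPKM (-1.51 ± 0.25, adjusted p = 3.81e-06), and Stat2 to 5.53, 10.2, 5.81 and 6.94 FPKM (-1.2 ± 0.30, adjusted p = 0.00234). None of these 5 overlapped between the groups. Samhd1, at 0.227, 0.758, 2.60 and 0.741 FPKM, did not pass. The remaining 6 calls, of Ifi47, Ifitm3, Trim25, Gbp3, Irgm1 and Irgm2, were each lost without 1 library (adjusted p from 0.0508 to 0.235), and those of Ifi47 and Irgm1 with equal totals and Trim25 with quantile normalization (from 0.054 to 0.156).

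The CD8 steps were then compared with each other and at their end. At the difference of steps 9 genes were smaller and 2, Ifitm2 and Irf1, larger in induced cells, where 4.09% of all genes were larger and 3.24% smaller (7.34% in either direction). The step of Samhd1 differed by -4.26 ± 0.47, adjusted p = 3.17e-10, that of Oas3 by -3.24 ± 0.66, adjusted p = 0.000415, that of Sp100 by -1.44 ± 0.35, adjusted p = 0.00396 and that of Ifitm2 by 2.09 ± 0.40, adjusted p = 0.000162. In CD8 SP cells themselves 10 members were lower and 1 was higher in induced cells (5.01% and 5.63% of all genes, 10.6% in either direction; member median -0.63). Samhd1 (-3.99 ± 0.33, adjusted p = 1.03e-14), Ifit1 (-2.16 ± 0.52, adjusted p = 0.00236) and Oas3 (-1.96 ± 0.47, adjusted p = 0.00206) were lower, and Ifitm2 (2.37 ± 0.28, adjusted p = 1.91e-09) was higher. The calls of Irf7, Dhx58, Gbp7 and Zbp1 were lost without CD8 SP library 1 (adjusted p from 0.0582 to 0.385). At the difference of steps the calls of Ifit1, Ifit3, Isg15, Isg20, Irf1 and Gbp7 were each lost without 1 library (adjusted p from 0.0523 to 0.245), which for Ifit1, Ifit3, Irf1 and Gbp7 could be CD8 SP library 1. Library weights ended those of Ifit1, Isg15, Irf1 and Gbp7, and equal totals, quantile normalization and no filter that of Irf1 (from 0.0548 to 0.251). With only the compared groups in the fit, 6 members passed at the difference of steps and 4 between CD8 SP cells. Markers of maturation summed to 1790.3 to 2424 FPKM in natural and 555 to 719 FPKM in induced CD8 SP cells, and conventional dendritic markers to 155 to 655 FPKM (8 of 11 at 1 FPKM or more, none at 0 in every library) and 8.59 to 29.2 FPKM (5 of 11, Clec9a and Batf3 at 0). Ccr7 is on both of these lists, and the maturation list is not particular to single positive cells. Myeloid markers summed to 276 to 365 FPKM in natural (2 of 12, with Elane, Mpo, Fcgr3 and Adgre1 at 0) and 1.75 to 6.72 FPKM in induced CD8 SP cells (1 of 12, with 7 at 0), sums that can rest on 1 gene. Natural killer markers summed to 290.0 to 359 FPKM (10 of 10) and 6.31 to 20.9 FPKM (2 of 10, with Klrb1c, Klre1, Gzmb, Prf1, Klra8 and Eomes at 0), and proliferation markers to 3448 to 3909.6 and 4487 to 5331 FPKM. Their part in the values was not tested.

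At the DP stage itself, where both means were lowest, single genes differed. Among the 45 genes 4 were higher and 3 lower in induced DP, where 4.83% and 5.53% of all genes were (10.4% in either direction), with a member median of 0.23. Irf1 was read at 76.1, 51.7 and 45 FPKM in induced and 138, 145, 187 and 127 FPKM in natural DP cells (-1.38 ± 0.22, adjusted p = 8.81e-06). Sp100, with the library values given above (1.54 ± 0.25, adjusted p = 8.8e-06), and Trim25, at 27.3, 37.0 and 28.4 FPKM against 16.8, 13.8, 10.4 and 20.5 FPKM (0.99 ± 0.20, adjusted p = 0.000341), were higher. Libraries of the 2 groups did not overlap for these 3 genes. Isg15 was listed at 0 in natural DP and read at 2.04, 3.02 and 2.09 FPKM in induced DP (adjusted p = 0.0182, 0.0816 without induced DP library 2). The calls of Isg20, Irgm1 and Rtp4 were lost without induced DP library 1 (adjusted p from 0.158 to 0.247). With library weights 4 members passed, without Isg15, Isg20 and Rtp4 (adjusted p from 0.0888 to 0.267), the call of Rtp4 was lost with equal totals, quantile normalization, a replicate block and no filter (from 0.0584 to 0.132), and 1 member passed, Isg15, when the 2 groups were fitted alone.

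Induced thymic ETP stood above natural thymic ETP in the mean over the members, but of 8 single calls 0 held under every alternative. Among the 45 genes 8 were higher and 0 lower, where 4.49% of all genes were higher and 3.78% lower (8.27% in either direction), and the member median was 0.64. Ifitm1 was read at 441, 365 and 394 FPKM in induced and 18.9 and 50.3 FPKM in natural cells (3.65 ± 0.72, adjusted p = 0.000279), and Ifitm2 at 393, 390.4 and 289.8 FPKM and 123 and 131 FPKM (1.48 ± 0.34, adjusted p = 0.00192). Sp100 was read at 78.5, 79.7 and 57.8 FPKM and 27.7 and 20.9 FPKM (1.53 ± 0.29, adjusted p = 0.000186). All 3 induced libraries lay above both natural ones for these genes. With a pseudocount of 0.1 the adjusted p was 0.151 for Ifitm1 and 0.228 for Ifitm2, and 2 members passed. With only these 2 groups in the fit 0 members passed, and 16 of all genes did.

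The other 5 were classical members. Isg15 was at 47.7, 44.0 and 25.1 FPKM in induced against 10.1 and 6.87 FPKM in natural thymic ETP (2.04 ± 0.62, adjusted p = 0.0245), and Oas3 at 11.4, 11.3 and 9.68 FPKM against 1.80 and 0.512 FPKM (2.52 ± 0.56, adjusted p = 0.00127). Oasl1 (2.28 ± 0.69), Oas2 (1.75 ± 0.51) and Rsad2, which makes a chain-terminating nucleotide (1.92 ± 0.59), completed the set. All 5 calls were lost without natural library 2, and those of Isg15, Oas2 and Oasl1 also without natural library 1, which leaves 1 natural library. Induced libraries mattered too. The calls of Isg15, Oasl1 and Rsad2 were lost without induced library 1 or 2, and that of Oas2 without induced library 2 or 3. A pseudocount of 0.1 ended the calls of Isg15, Oas2, Oasl1 and Rsad2 (from 0.0603 to 0.205), and quantile normalization that of Rsad2 (0.0513). Of the pathway lists, 10 of 54 further response genes were higher and 1 lower, and Irf8, which directs dendritic cell development, was at 0.301 ± 0.456 FPKM in induced (n = 3) and 54.4 ± 34.2 FPKM in natural cells (n = 2; -5.32 ± 0.55). Conventional dendritic markers summed to 10.4 to 15.4 FPKM in induced cells (3 of 11 at 1 FPKM or more, with H2-Eb1, Xcr1, Clec9a and Batf3 at 0) and to 1268 to 2185 FPKM in natural cells (9 of 11). Proliferation markers summed to 1037 to 1058 and 2538 to 2587 FPKM. Their part in the member values was not tested.

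In the double negative stages the direction was opposite at DN1 and few genes passed afterwards. At DN1 1 member was higher and 17 were lower in induced cells, where 9.90% of all genes were higher and 8.93% lower (18.8% in either direction), with a median of -0.72. Xaf1 was read at 22.1, 15.6, 19.0 and 29.2 FPKM in induced and 60.1, 83.2 and 71.5 FPKM in natural DN1 cells (-1.71 ± 0.33, adjusted p = 5.5e-05), Samhd1 at 38.3, 45.7, 35.8 and 30.6 FPKM and 102, 88.0 and 147 FPKM (-1.53 ± 0.33, adjusted p = 0.000401), and Ifit3 at 3.32, 2.56, 0.867 and 1.30 FPKM and 19.8, 9.11 and 15.3 FPKM (-2.40 ± 0.46, adjusted p = 5.62e-05). Ifitm1 (-3.28 ± 0.60), Ifitm3 (-3.48 ± 0.59) and Ifi35 (-1.39 ± 0.29) were lower too, and natural libraries lay above induced ones for all 6. Oas1a at 13.7, 10.4, 13.8 and 13.8 FPKM against 42.2, 46.7 and 36.0 FPKM (-1.61 ± 0.36, adjusted p = 0.000524) and Irf7 at 18.3, 26.6, 24.6 and 18.5 FPKM against 75.3, 74.5 and 62.3 FPKM (-1.65 ± 0.45, adjusted p = 0.0046) did not overlap either.

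Markers of other lineages stood higher in natural than in induced DN1 cells. Natural killer markers summed to 4033 to 4639.6 FPKM in natural DN1 (10 of 10 at 1 FPKM or more) and 369 to 738 FPKM in induced DN1 (9 of 10), myeloid markers to 2192 to 2949 FPKM (5 of 12, Elane, S100a8 and S100a9 at 0) and 25.7 to 53.7 FPKM (2 of 12), and conventional dendritic markers to 620.4 to 845 FPKM (11 of 11) and 58.9 to 119 FPKM (7 of 11). Ifng, which natural killer cells make, stood at 22.1 ± 6.96 FPKM in induced DN1 (n = 4; -3.42 ± 0.63, adjusted p = 3.38e-05). Their part in the member values was not tested. Without natural DN1 libraries 1 and 2, the pair with high B lineage markers, 1 natural library was left. Fewer members passed in that fit, and fewer of all genes did too. The members named first above kept their calls, and Irf7 and Oas1a were among those that lost them. Single left-out libraries ended the calls of Mx1, Oas3, Oasl2, Dhx58, Ifitm2, Tap1, Adar and Sp100 (adjusted p from 0.0569 to 0.357). With a pseudocount of 0.1, and likewise without natural library 2, 11 members passed. The pseudocount ended the calls of Mx1, Oas3, Oasl2, Dhx58, Ifi27l2a, Ifitm2 and Adar (adjusted p from 0.0587 to 0.284), and equal totals those of the same genes except Ifi27l2a (up to 0.0826). With no filter those of Oas3 and Oasl2 were lost, and with a replicate block those of Mx1 and Oasl2 (from 0.0519 to 0.0669).

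At DN2 0 members passed with limma, where 1.50% of all genes did (member median -0.14), 8 had an unadjusted p under 0.05, where 10.5% of all genes did, and 2 passed with library weights, where 659 of all genes did against 262 without. At DN3 3 were higher and 0 lower in induced cells (2.35% of all genes were higher and 1.19% lower, 3.54% in either direction), namely Gbp7 at 26.9, 24.4 and 31.1 FPKM against 10.5 and 9.32 FPKM (1.38 ± 0.33, adjusted p = 0.00764, 0.0687 without natural library 2), Ifih1 (1.68 ± 0.48, up to 0.67 without natural library 1) and Irgm2 (1.47 ± 0.44, up to 0.57 without natural library 1). The calls of Ifih1 and Irgm2 were also lost with library weights and quantile normalization, that of Ifih1 with a pseudocount of 0.1 and that of Irgm2 with no filter (from 0.0532 to 0.15). At DN4 1 gene was higher (0.390% of all genes were, 0.741% in either direction), Sp100 at 51.7, 58.3, 73.2 and 54.6 FPKM against 21.2, 29.6 and 36.5 FPKM (1.03 ± 0.25, adjusted p = 0.0207). That call did not survive leaving out natural library 1, natural library 2, induced library 2 or induced library 3 (adjusted p from 0.0521 to 0.283). At DN4 6 members passed with library weights, where 1462 of all genes did against 129 without, and 2 with equal totals. A fit of the compared groups alone called 0 members at DN3, where it called 0 of all genes, and 0 at DN4, where it called 374. Sp100 was thus higher in induced cells with no overlap at thymic ETP, DN1, DN4 and DP, and lower at CD4 SP in 4 of 4 induced libraries, though there it did not pass.

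Induced BM ETP differed from natural BM ETP in both directions. Among the 45 genes 5 were higher and 13 lower in induced cells, where 14.4% of all genes were higher and 16.8% lower (31.1% in either direction), with a median of -0.52. Gbp7 was read at 35.5 and 30.4 FPKM in induced and 3.10, 3.53 and 3.21 FPKM in natural cells (2.98 ± 0.33, adjusted p = 3.17e-11), Ifi27l2a at 218 and 321 FPKM and 12.9, 8.33 and 12.5 FPKM (4.46 ± 0.73, adjusted p = 1.27e-06), and Xaf1 at 28.2 and 24.6 FPKM and 8.33, 9.01 and 8.43 FPKM (1.51 ± 0.39, adjusted p = 0.00163). Irf7 was read at 0 and 0.130 FPKM in induced and 8.33, 7.42 and 16.6 FPKM in natural cells (-3.39 ± 0.53, adjusted p = 5.33e-07), and Oas2 was listed at 0 in both induced libraries (adjusted p = 3.25e-05). Ifitm2 (-1.89 ± 0.34, adjusted p = 7.48e-06), Samhd1 (-1.79 ± 0.40, adjusted p = 0.000264) and Oasl2 (-2.67 ± 0.60, adjusted p = 0.000261) were lower. All 18 genes had libraries that did not overlap, as did 97% of all genes that passed and 52.7% of all genes tested, with 2 induced libraries. The calls of Isg20, Mx1, Ifih1, Ifi47, Ifitm3, Parp14, Gbp2 and Tap1 were lost without 1 library (adjusted p from 0.0524 to 0.434), and those of Ifih1, Ifitm3 and Parp14 with a pseudocount of 0.1 (from 0.0515 to 0.0701). Myeloid markers summed to 1215 to 1762 FPKM in induced (7 of 12 at 1 FPKM or more, Elane and Csf3r at 0) and 23024 to 35272 FPKM in natural BM ETP (12 of 12), and B lineage markers to 244 to 301 FPKM in the natural cells (5 of 10, with Pax5, Ebf1 and Ms4a1 at 0). Stem and progenitor markers summed to 21.6 to 35.8 FPKM in induced (4 of 10, Mecom and Procr at 0) and 426 to 558 FPKM in natural BM ETP (10 of 10), natural killer markers to 4.85 to 11.1 (3 of 10, with 7 at 0) and 737 to 792 FPKM (4 of 10, with Klre1, Klra8 and Eomes at 0), and proliferation markers to 4765 to 5148 and 1616 to 1655 FPKM. Their part in the values was not tested.

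Against the pro/pre-B cells they derive from, induced BM ETP had 6 members higher and 8 lower (8.10% and 7.40% of all genes, 15.5% in either direction; member median -0.27). Gbp7, at 4.36, 4.80 and 6.32 FPKM in pro/pre-B libraries 1, 2 and 4 (2.47 ± 0.33, adjusted p = 2.36e-08), and Gbp2, at 29.0 and 19.1 FPKM in induced BM ETP and 3.51, 4.28 and 6.01 FPKM in pro/pre-B cells (2.16 ± 0.44, adjusted p = 0.000164), were higher, and so was Ifitm2 (1.55 ± 0.34, adjusted p = 0.000511, 0.132 with a pseudocount of 0.1). Samhd1, at 72.0, 63.9 and 72.8 FPKM in pro/pre-B cells (-2.72 ± 0.40, adjusted p = 3.7e-07), and Irf7 (-2.39 ± 0.53, adjusted p = 0.000644) were lower. Ifi27l2a, at 158, 267 and 422 FPKM in pro/pre-B cells, overlapped with induced BM ETP. Without pro/pre-B library 4, which held the myeloid markers, 6 were higher and 9 lower. The calls of Isg20, Ddx58, Bst2, Ifitm1, Igtp and Sp100 were lost without induced library 2 (adjusted p from 0.0598 to 0.739), and those of Trim25 and Gbp3 without induced library 1 (0.393 and 0.0534). Those of Ifitm1 and Gbp3 were lost with a pseudocount of 0.1, and that of Trim25 with equal totals, library weights and a replicate block (from 0.0567 to 0.0685). With only these 2 groups in the fit 0 members passed, and 13 of all genes did.

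Mature B cells held more of the response than pro/pre-B cells. Among the 45 genes 24 were higher and 1 was lower, where 11.5% of all genes were higher and 13.4% lower (25.0% in either direction), with a median of 0.96, and without pro/pre-B library 4 the counts were 21 and 2. All 4 factors were higher, with Stat2 at 27.6, 35.9, 24.8 and 42.4 FPKM in mature and 8.40, 7.39 and 13.1 FPKM in pro/pre-B cells (1.67 ± 0.30, adjusted p = 1.22e-05). Ifit3 was read at 12.9, 10.7, 10.3 and 5.79 FPKM and 0.991, 0.788 and 0 FPKM (2.79 ± 0.46, adjusted p = 1.78e-06), Samhd1 at 227, 269, 203 and 221 FPKM against the values above (1.71 ± 0.33, adjusted p = 4.74e-05), and Sp100 at 256, 281, 202 and 200.3 FPKM against 77.0, 59.0 and 69.4 FPKM (1.76 ± 0.25, adjusted p = 4.53e-08). Mature B libraries lay above all pro/pre-B libraries for these 4 genes. Ifitm2 went the other way, at 0, 0, 0 and 0.763 FPKM in mature and 27.8, 35.8 and 26.1 FPKM in pro/pre-B cells (-4.73 ± 0.28, adjusted p = 4.57e-21). Single left-out libraries ended the calls of Mx2, Oas1a, Oas2, Usp18, Trim25, Gbp2, Irgm1 and Adar (adjusted p from 0.0505 to 0.279). Equal totals ended the calls of Irf1, Mx2, Oas1a, Oas2, Trim25, Gbp2, Gbp3, Irgm1 and Adar (adjusted p from 0.0519 to 0.464). Other pseudocounts, filters, normalization or weights ended those of Mx2, Oas1a, Oas2, Trim25 and Gbp3 (from 0.052 to 0.176). A fit of the 2 groups alone called 14 members. The proliferation markers summed to 211 to 361 FPKM in mature B and 2373 to 3279 FPKM in pro/pre-B cells, and their part in the values was not tested.

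In mature T cells 3 members were higher and 3 lower than in natural CD4 SP cells, where 9.28% of all genes were higher and 8.98% lower (18.3% in either direction; member median -0.04). Ifitm2 was listed at 0 in mature T cells (adjusted p = 0.00119). The calls of Mx1, Irgm2 and Tap1 (higher) and of Irf9 and Mx2 (lower) were each lost without 1 library (adjusted p from 0.0574 to 0.257). With a pseudocount of 0.1, 2 members passed, and with library weights 1 did, Ifitm2. Equal totals ended the calls of Mx1, Irgm2 and Tap1 (from 0.0516 to 0.19), and no filter or a replicate block that of Irf9 (0.056 and 0.0534). With the 2 groups fitted alone none of the 6 calls held, and 1 member outside them passed.

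Members with and without the response element were also counted apart. From natural DP to CD4 SP 15 of 19 members with the element rose (median log2 fold change 1.67) and 12 of 17 without it (median 1.57). At the step to natural CD8 SP 9 of the 19 rose and 3 fell, and of the 17 without it 6 rose and 0 fell, with Igtp, Irgm2 and Stat2, whose sites are printed above, as the 3 that fell. At the induced step to CD4 SP 4 rose and 1 fell in each class. These counts are a description with no test.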

How the data were processed

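RNA of 1000 sorted cells per library was measured by polyA RNA-seq, with amplification from low input and Nextera XT libraries, per the labels' protocols. The deposited values are FPKM per gene, made by the authors with bcl2fastq, TopHat, Cufflinks 2.2.1 and Cuffnorm on build NCBIM37, per the submitters' processing notes. Parameters, annotation, strand setting and Cuffnorm's scaling are not given in the sources used here. Deposited p-values or counts were not used. Symbols came from GENCODE vM21, which matched 32916 of 37980 identifiers (86.7%).

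From these values limma 3.58.1 was run on log2(FPKM + 1), with 1 mean per cell type over 75 libraries (51 residual degrees of freedom), trended and robust variance moderation, two-sided tests and Benjamini-Hochberg adjustment over the 17416 genes that reached 1 FPKM in 2 or more libraries; the threshold was 0.05. In each of 19 comparisons up to 8 called members whose mean reached 5 FPKM in 1 group were to be named. Those whose libraries did not overlap came first and size of change came next, so the rule favoured genes without overlap. Further members were named to give each role, to show calls that 1 library decided, or after their values were seen. The members and all lists were chosen with earlier results of these data known. Alternatives were a pseudocount of 0.1, no filter, equal totals, quantile normalization, library weights, a replicate block, a fit of the compared groups alone and each library left out; the fit without natural DN1 libraries 1 and 2 was chosen after seeing the data. In simulated data the share of false calls was above the threshold. Depth was estimated from the steps of low FPKM values, of which 73.7% to 94.7% per library lay within 0.2 of a whole fragment. The scale was chosen to bring these same values near whole fragments, so this share is no check of it.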

Additional observations from a re-analysis of the deposited data

Results flagged for a closer look

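Of 57 sets of 4 libraries examined for a library far from the others, 2 held one, where about 5% are expected to by chance. In induced DN1 cells Ifi27l2a was at 16.8 FPKM in library 4 against 30.4 to 33.5 FPKM in the other 3, and Oas1a was at 10.4 FPKM in library 2 against 13.7 to 13.8 FPKM in the other 3.

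The change from DP to CD4 SP differed between induced and natural cells, by the limma test of the difference itself, for 23 members. The differences, induced minus natural on the log2(FPKM + 1) scale, were negative for 22. Among effectors they were -3.09 for Ifit1, -2.87 for Ifit3, -3.31 for Isg20, -2.45 for Mx2, -1.90 for Xaf1, -1.77 for Ifi35, -2.12 for Parp14, -3.10 for Samhd1, -1.53 for Rtp4 and -2.11 for Sp100. Among sensors they were -2.82 for Oas3, -1.97 for Ifih1, -1.93 for Dhx58 and -1.26 for Adar. In the ISG15 system they were -2.64 for Isg15 and -1.58 for Trim25, among factors -2.46 for Irf7 and -1.34 for Irf9, and among GTPases -1.76 for Ifi47, -2.25 for Gbp2, -1.78 for Gbp7 and -1.24 for Igtp. Ifitm2 had a positive difference of 1.27. Ifit1, Isg15 and Ifitm2 were listed at 0 in natural DP, so that their differences depend on the pseudocount, and with one of 0.1 the call of Ifitm2 was lost (adjusted p = 0.472). Leaving out 1 library ended the calls of Irf9, Ifih1, Ifitm2, Rtp4 and Adar (adjusted p from 0.0507 to 0.11).

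The change from DP to CD8 SP differed in the same test for 11 members. The differences were -2.57 for Ifit1, -2.37 for Ifit3, -2.56 for Isg15, -2.56 for Isg20, -2.73 for Irf7, -3.24 for Oas3, -4.26 for Samhd1, -1.26 for Gbp7 and -1.44 for Sp100. They were 0.97 for Irf1 and 2.09 for Ifitm2. Both tests use the same DP libraries.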

How the results depend on the processing

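Of 258 calls of members in 18 comparisons, 0 changed direction under any alternative, 91 held under all of them and 149 under all but a fit of the compared groups alone. That fit, which estimates the spread from fewer libraries, ended 144 calls. Over all genes that fit called 16 for thymic ETP (1441 in the main fit), 0 for DN3 (616) and 374 for DN4 (129). For the natural step to CD4 SP it called 1315 of all genes (4655), for the induced one 265 (1717) and for mature B 2147 (4346). For DP it called 115 (1804), for mature T 178 (3181), between CD4 SP cells 2132 (4599) and between CD8 SP cells 1667 (1852). For the difference of CD4 steps it called 1221 (3019), for the natural step to CD8 SP 1686 (4169) and for the difference of CD8 steps 788 (1278). For HSC against MPP it called 827 (1416) and for induced BM ETP against pro/pre-B 13 (2698). It called 0 members for thymic ETP, DN3, DN4 and induced BM ETP against pro/pre-B, 1 for DP, for HSC against MPP and for mature T, 3 for the induced and 22 for the natural step from DP to CD4 SP, 8 for their difference, 9 for the natural step to CD8 SP, 6 for the difference of CD8 steps, 16 and 4 between CD4 and CD8 SP cells, and 14 for mature B. With a pseudocount of 0.1 the count was 2 for thymic ETP, 11 for DN1 and 2 for mature T. Over all genes it was 1243 (1441 in the main fit), 2939 (3280) and 2977 (3181). Library weights gave 2 for DN2, 1 for DN3, 6 for DN4, 4 for DP, 7 for the difference of CD8 steps and 1 for mature T. Over all genes weights called 659 at DN2 (262 in the main fit), 210 at DN3 (616), 1462 at DN4 (129) and 737 at DP (1804). For the difference of CD8 steps they called 1047 (1278) and for mature T 1714 (3181). Quantile normalization gave 1 for DN3 (569 of all genes), and equal totals gave 2 for DN4 (120 of all genes). Without natural DN1 libraries 1 and 2, chosen after seeing the data, 1 natural library was left, and fewer members and fewer of all genes passed at DN1. The cause of these changes was not tested.

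With 1 library left out the count ranged from 3 to 9 for thymic ETP (3 without natural library 2, 5 and 4 without induced library 1 and 2), 11 to 17 for DN1 (11 without natural library 2), 0 to 1 for DN2 (1 without natural library 1), 1 to 4 for DN3 (1 without induced library 2) and 0 to 1 for DN4 (0 without natural library 1, natural library 2, induced library 2 or induced library 3). It ranged from 7 to 12 for CD8 SP and 7 to 11 for the difference of CD8 steps (7 in both without natural CD8 SP library 1), 2 to 7 for mature T (3 without mature T library 1, 2 without CD4 SP library 2) and 9 to 15 for induced BM ETP against pro/pre-B (9 without induced library 2). Where 1 library of a group was left, it was assumed to vary like the other groups.

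A replicate block changed no count of calls by over 1.5 times: 35 at the natural step to CD4 SP, 26 in CD4 SP, 19 in BM ETP and 16 in DN1. Of 41 pairs of libraries with the same number 1 had correlated deviations over 0.1 (from -0.04 to 0.13). Those of HSC and MPP were at 0.09, 0.07, 0.02 and 0.13. Pairs with the same number were not compared with other pairs, so whether the numbers mark a pairing was not tested. Scaling moved the median of all genes by at most 0.06 log2 units, but that median was 0.00 in the main fit and says little on scaling. Equal totals ended 30 of 258 calls and quantile normalization 9. The group difference in the mean over the members moved by the SD between libraries or more in 7 comparisons with equal totals and by less in 10. With a pseudocount of 0.1 it did so in 10 and not in 7, and with quantile normalization in 0. Depth limits values under a few FPKM, most of all in myeloid cells.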
